A study of Mus musculus with 8 samples.

Results

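Distal AP-1 regions were described in chromatin accessibility data (ATAC-seq) from alveolar macrophages (AMs), the resident macrophages of the airspaces, sorted from bronchoalveolar lavage of adult C57BL/6J mice. A region was taken when its peak summit lay 1 to 100 kb away from the closest transcription start site (TSS) and an exact AP-1 heptamer lay within 100 bp of that summit. There were 5673 such regions among 51733 autosomal distal regions (10.97%) and 72711 consensus regions, which are merged peaks found in at least 2 of the 8 libraries. The WT group was 4 libraries (replicates 1_2, 1_3, 3 and 4) from Rxrab fl/fl mice, whose loxP-flanked Rxra and Rxrb genes were left intact because no Cre was present. The KO group was 4 libraries (replicates 1_2, 1_3, 2 and 3) from CD11cCre+ Rxrab fl/fl mice, in which Cre driven by the CD11c promoter removes both retinoid X receptor genes from CD11c-expressing cells, AMs among them. The Cre also acts in other cells that express CD11c, and the controls carry the floxed alleles but no Cre, so effects of Cre alone cannot be told apart from those of the deletion. The study's text describes the sorted KO cells of the accessibility comparison both as mature AMs and as immature AMs, so a difference in maturity between the sorted cells cannot be told apart from a change within mature AMs.

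AP-1 is a family of dimers of basic leucine zipper (bZIP) proteins, made of FOS, JUN, ATF and BATF members, which bind the heptamer TGAGTCA. On the opposite strand it reads TGACTCA, so both words are one site. In macrophages AP-1 acts mostly at enhancers, often beside the lineage factor PU.1, and its activity rises with inflammatory and stress signals. RXRs are nuclear receptors that pair with partners such as PPARγ on a direct repeat of AGGTCA half-sites with 1 base between them (DR1). A heptamer in a peak is a match of letters and was not a measurement of AP-1 binding.

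The peak lists held 60363 to 65009 peaks in KO and 61240 to 72484 in WT. Relative depth, worked back as background tags (read ends) per 200 bp, ranged from 1.12 to 1.86 in KO and from 1.42 to 2.26 in WT, and WT replicate 1_3 was the deepest with the longest list. A region of Rxra at chr2:27744546-27744950 had a peak in 4 WT and 0 KO libraries. Promoter peaks were present in all 8 libraries for 9 of 10 AM markers, all but Chil3, and in none for any of the 3 T cell and 3 B cell markers. Promoters of 2 of 4 neutrophil genes (S100a8 and Cxcr2), 2 of 3 monocyte genes, 2 of 3 epithelial genes and 1 of 2 fibroblast genes were also open in all 8, while Ly6g, S100a9 and Sftpc had no promoter peak in any library. The part of other cells in the results below was not tested.

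The stretches below show what was measured, each with 30 bases on either side of the heptamer, which is in capitals (GRCm38/mm10, plus strand, 5′ to 3′, named by the nearest protein-coding gene). The first set comes from the regions with the largest falls in KO and the second from those with the largest rises. The gene name gives only the nearest protein-coding TSS and does not assign a target.
Nck2 chr1:43474686-43474752: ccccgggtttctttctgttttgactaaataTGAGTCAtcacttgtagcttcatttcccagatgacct
Ltbp1 chr17:75199802-75199868: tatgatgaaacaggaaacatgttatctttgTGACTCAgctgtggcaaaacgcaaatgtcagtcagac
Lgr4 chr2:109959336-109959402: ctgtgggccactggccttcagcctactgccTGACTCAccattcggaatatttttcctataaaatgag
Trib2 chr12:16006849-16006915: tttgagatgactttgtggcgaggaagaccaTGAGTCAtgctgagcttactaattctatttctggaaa
Ktn1 chr14:47863248-47863314: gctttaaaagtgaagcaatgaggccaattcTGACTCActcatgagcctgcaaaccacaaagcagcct
Dnaja2 chr8:85574194-85574260: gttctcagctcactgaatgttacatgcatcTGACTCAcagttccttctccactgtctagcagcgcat
Baiap2 chr11:119933274-119933340: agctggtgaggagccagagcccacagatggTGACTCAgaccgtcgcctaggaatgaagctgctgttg
Rgs5 chr1:169626029-169626095: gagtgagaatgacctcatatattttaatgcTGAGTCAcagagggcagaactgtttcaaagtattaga
6430531B16Rik chr7:139971614-139971680: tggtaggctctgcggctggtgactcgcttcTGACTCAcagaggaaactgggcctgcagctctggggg
Malsu1 chr6:49096550-49096616: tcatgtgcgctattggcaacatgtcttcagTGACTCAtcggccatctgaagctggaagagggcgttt
Depdc1b chr13:108303960-108304026: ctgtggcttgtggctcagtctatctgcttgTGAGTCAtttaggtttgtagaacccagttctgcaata
Nudt9 chr5:104056539-104056605: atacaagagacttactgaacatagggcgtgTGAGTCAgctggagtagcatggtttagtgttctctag
Rab7b chr1:131703590-131703656: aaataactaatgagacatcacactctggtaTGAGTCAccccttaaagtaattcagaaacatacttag
Clba1 chr12:112795986-112796052: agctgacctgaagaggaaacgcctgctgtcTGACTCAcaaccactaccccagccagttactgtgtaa

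The heptamer was concentrated at the centre of distal peaks. Over all 51733 distal regions, match centres 0 to 25 bp from the summit occurred at 8.45 per 1000 regions per 10 bp, 4.37 times the rate of 1.93 found 300 to 500 bp away. The rate was 7.44 at 26 to 50 bp and 3.92 at 51 to 100 bp, and at 100 to 200 bp it was 1.95, or 1.01 times the rate far from the summit. The heptamer spelled backwards (ACTCAGT or ACTGAGT), which has the same base composition, reached 2.23 at 0 to 25 bp and 1.88 at 300 to 500 bp. Of 2334 backwards matches within 100 bp of distal summits, 439 (18.8%) overlapped an AP-1 match, because both words share the letters ACTCA. The enrichment about the summit is a property of all distal peaks together and was not set by the rule, which only required a match within 100 bp.

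**Figure D1:**
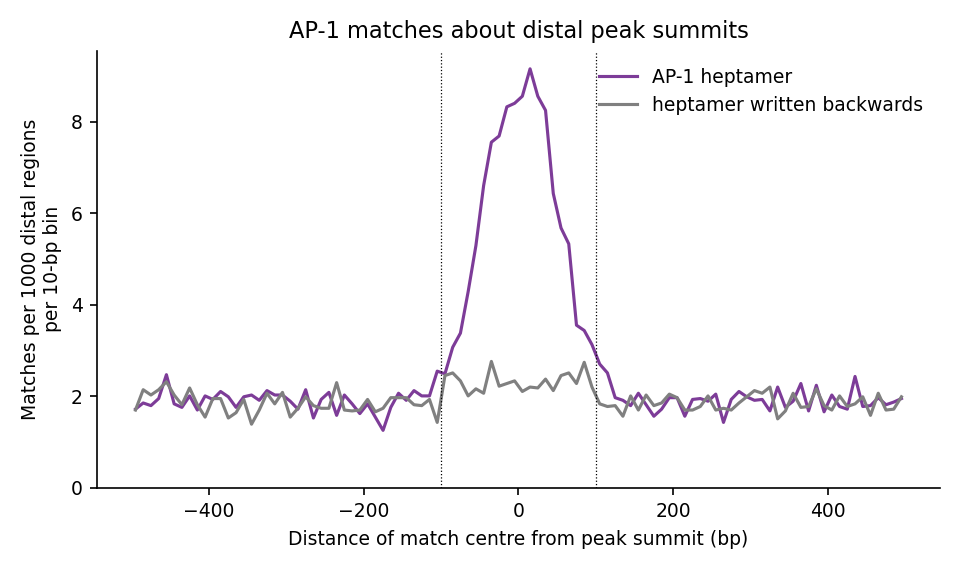
Matches per 1000 autosomal distal regions in 10-bp bins (y axis) against distance of the match centre from the peak summit in bp (x axis), for the AP-1 heptamer (purple) and its letters backwards (grey); dotted lines mark 100 bp. The AP-1 line rises within about 100 bp of the summit, and beyond it both lines lie near 2.

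Proximity to genes also separated the regions. A heptamer was found in 4.36% of autosomal regions whose summit lay at most 1 kb from a TSS (686 of 15733). The share was 10.7% at 1 to 10 kb, 11.2% at 10 to 30 kb, 11.02% at 30 to 100 kb and 10.9% beyond 100 kb, so it changed little once the promoter was left. The backwards heptamer was also less common near genes, in 1.98% of regions at most 1 kb from a TSS against 4.39% of distal ones. Median GC content was 63.2% and 49.3% in these classes, and its part in the lower shares was not tested. By contrast, CRE (TGACGTCA), the octamer bound by CREB and ATF dimers, was in 2.42% of promoter regions and 0.545% of distal ones. Distal AP-1 regions had their summits in introns in 3245 cases (57.2%), outside genes in 2233 (39.4%) and in exons in 195 (3.44%). Other distal regions were divided much alike, with 56.5% in introns, 38.5% outside genes and 5.05% in exons. Summits of AP-1 regions lay a median of 15.3 kb from a TSS, those of other distal regions 15 kb, and the median GC content was 49.3% for both.

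Most regions held a single heptamer. There were 5287 regions with 1 match, 355 with 2 and 31 with 3 or more, giving 6093 matches in all, and the nearest match lay a median of 34.0 bp from the summit. The 6093 matches were 1.54% of the 396904 heptamers on the 19 autosomes. The bases beside the heptamer differed from those of the genome at large. With every match turned so that its central base was G, the base after it was A in 8.34% of matches against 19.3% of all autosomal heptamers, and C in 36.2% against 24.5%. The base before it was T in 13.8% against 22.99%. Matches extended by GC on either side, as in the elements bound by NRF2 and small MAF proteins, were 1117 of the 6093 (18.3%) against 12.9% of the genome's heptamers. Heptamers with A before and T after made up 7.22% against 5.88%. Matches lying in repeats were 6.50% against 14.99%. These are shares of letters over sites that were not tested against each other, and most heptamers of the genome lay outside any peak.

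Other short patterns within the same 100-bp window gave the company in which the heptamer was found. The PU.1 octamer GAGGAAGT was in 490 regions (8.64%) against 12.7% of other distal regions. RUNX (TGTGGTTA or TGTGGTTT) was in 343 (6.05%) against 6.46%, the E-box CACGTG in 274 (4.83%) against 4.87%, and the C/EBP octamer (TTGCGCAA, TTGCGTAA, TTACGCAA or TTACGTAA) in 36 (0.635%) against 0.682%. DR1, allowing up to 2 mismatches, was in 260 (4.58%) against 4.798%, and its match overlapped the heptamer in 17 of these regions. A composite arrangement had GAAA directly before the heptamer or TTTC directly after it, or TTTC 4 bases before or GAAA 4 bases after. It is known from composite sites of BATF and IRF factors and was in 181 regions (3.19%). All matches of the PU.1 octamer overlapped a heptamer in 41 of the 490 regions.

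Distal AP-1 regions were open in most libraries. A peak was present in all 8 libraries in 3863 of 5673 regions (68.1%), against 60.4% of other distal regions, and 655 regions had a peak in only 2 or 3. Peak strength was ranked within each library's list by the −log10 q-value, from 0 to 100. The median mean percentile of AP-1 regions was 45.5, against 34.4 for other distal regions. Among AP-1 regions it was 45.3 with 1 heptamer and 50.3 with 2 or more, 50.0 with a PU.1 octamer, 61.3 with RUNX and 28.45 where the heptamer nearest the summit lay in a repeat. By library, the median percentile of AP-1 regions with a peak was 53.4, 54.4, 53.7 and 54.4 in KO and 53.9, 56.8, 54.4 and 54.1 in WT. Every one of these was above the median of other distal regions in the same library, which ranged from 43.9 to 47.0.

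The 6 strongest regions over all libraries included those near Zfp869, Pfkfb3, Yae1d1, Trdmt1 and Smim3. Levels are summit tags plus 0.5 divided by the library's median over all 47499 regions with a peak in all 8 libraries, so 1 is the median region. The region 6.33 kb from Zfp869, a zinc finger gene (chr8:69716332-69717365, intergenic), had levels of 8.94, 8.35, 8.67 and 8.7 in KO and 7.79, 7.93, 8.6 and 9.76 in WT. The region 71.9 kb from Pfkfb3, which makes the glycolytic activator fructose 2,6-bisphosphate (chr2:11429419-11430088, intergenic), had levels of 7.35, 7.43, 6.74 and 7.35 in KO and 7.28, 6.25, 6.83 and 7.63 in WT. The ranges of the genotypes overlapped at both. None of the 6 passed the test between genotypes described next, and the heptamers of 2 of them are shown.
Zfp869 chr8:69716981-69717047: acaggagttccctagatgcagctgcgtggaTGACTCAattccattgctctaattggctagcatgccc
Pfkfb3 chr2:11429698-11429764: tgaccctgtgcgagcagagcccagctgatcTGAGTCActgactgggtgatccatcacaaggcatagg

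The first comparison asked whether strong distal peaks held the heptamer as often in KO as in WT. Among the 20000 strongest distal peaks of each library, the share with a heptamer was 13.9%, 13.9%, 13.8% and 13.9% in KO and 13.7%, 13.6%, 13.1% and 13.5% in WT. The 4 KO libraries lay above the 4 WT libraries without overlap. The means were 13.88% ± 0.0723 (SD, n = 4) in KO and 13.46% ± 0.234 in WT, a difference of 0.424 percentage points (exact permutation test over 70 labelings, two-sided, p = 0.0286, the smallest the design allows). Over the 4 patterns tested the Benjamini-Hochberg adjusted p was 0.114, so the difference did not pass the correction. For the other 3 patterns the genotypes overlapped: the backwards heptamer was at 4.64% ± 0.0382 in KO and 4.65% ± 0.0882 in WT (exact permutation p = 1, adjusted p = 1), CRE at 0.701% ± 0.0342 and 0.724% ± 0.0149 (exact permutation p = 0.314, adjusted p = 0.533), and PU.1 at 13.97% ± 0.122 and 14.04% ± 0.136 (exact permutation p = 0.4, adjusted p = 0.533). Among the 10000 strongest distal peaks the difference in the AP-1 share was 0.263 points (exact permutation p = 0.114).

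**Figure D2:**
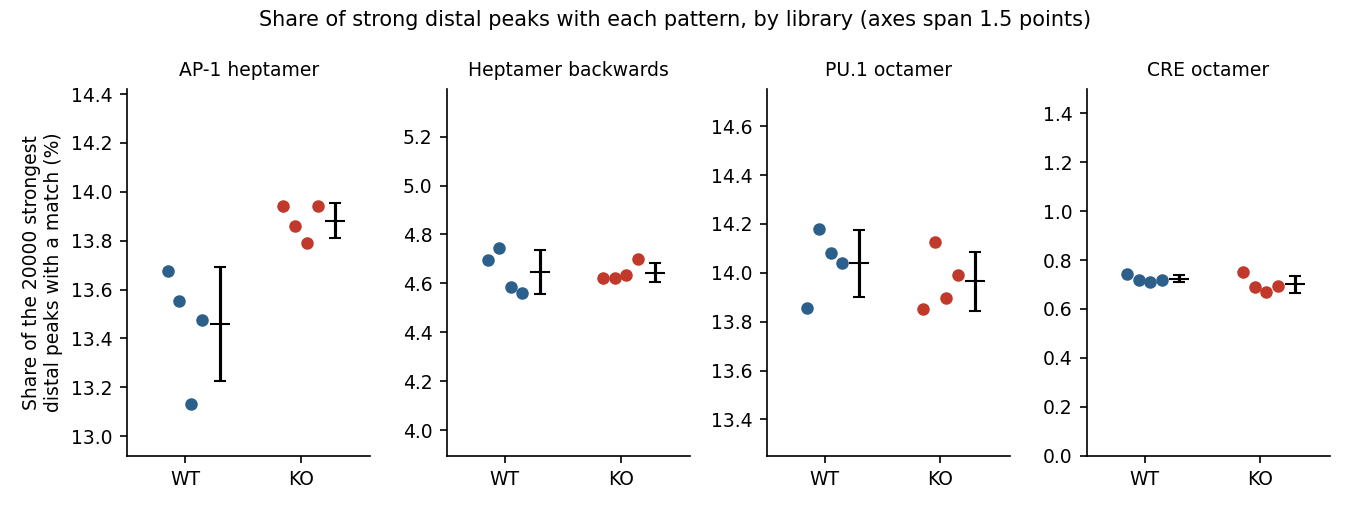
Share of each library's 20000 strongest distal peaks with a match (y axis, %) for 4 patterns, by genotype (x axis); points are libraries, bars mean ± SD, and each axis spans 1.5 percentage points, only that of CRE starting at 0. The 4 KO libraries lie above the 4 WT libraries for the AP-1 heptamer alone.

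Counted over regions, 83.1%, 88.1%, 83.4% and 85.7% of the 5673 AP-1 regions had a peak in the KO libraries and 86.73%, 91.9%, 85.8% and 81.3% in the WT libraries, and these ranges overlapped. Other distal regions had a peak in 76.9% to 83.0% of cases in KO and in 78.3% to 92.1% in WT. The gap between AP-1 regions and other distal regions was 4.85 to 6.22 points in KO and from -0.215 to 3.63 points in WT. The 2 longest WT lists, replicates 1_3 and 3, had the 2 smallest gaps (-0.215 and 0.402 points), but the order of the gaps did not follow list length throughout. WT replicate 4, with the shortest WT list, had a smaller gap (2.94 points) than WT replicate 1_2 (3.63 points). In the lists closest in length, 65009 peaks in KO replicate 1_3 and 65028 in WT replicate 1_2, the gaps were 5.10 and 3.63 points. The part of list length was not tested.

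The second comparison asked which single regions differed in accessibility. Summit tags were compared with limma on a log2 scale over all 47499 regions with a peak in all 8 libraries, of which 3863 were AP-1 regions. Each library's value was the most tags at any of its own peak summits in the region. The position could therefore differ between libraries and from the summit used to find the heptamer. At an adjusted p under 0.05, 324 AP-1 regions fell in KO (8.39% of those tested), beside 7.03% of all regions, and 321 rose (8.31%), beside 5.81% of all regions. Other distal regions were called lower in 2390 of 27802 cases (8.60%) and higher in 1311 (4.72%). Rises therefore made up 49.8% of the called AP-1 regions, 35.4% of the called distal regions without a heptamer and 45.3% of all called regions. The median log2 difference (KO minus WT) was 0.04 for AP-1 regions, 0.01 for other distal regions and 0.04 for all regions. Of the 1810 AP-1 regions not tested, each lacked a peak in at least 1 library. In these pooled cells, a change in every cell and a change in the share of open cells cannot be told apart.

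The balance between rises and falls depended on the scaling. With total tag depth in place of the library median, 184 AP-1 regions were called lower (4.76%) and 94 higher (2.43%). The shares over all regions were 4.19% and 1.21%. Rises were then 33.8% of calls, against 18.9% for other distal regions. With centring on distal regions the counts were 297 (7.69%) and 378 (9.79%), beside 6.57% and 7.03% of all regions. Rises were 56.0% of calls there, against 40.7% for other distal regions. The share of rises among calls was larger in AP-1 regions than in other distal regions under each of the 23 settings run, while its size moved. The sizes of called differences ranged on the log2 scale from 0.23 to 1.84 for falls and from 0.24 to 1.62 for rises, and 18 falls and 24 rises were of at least 1.

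**Figure D3:**
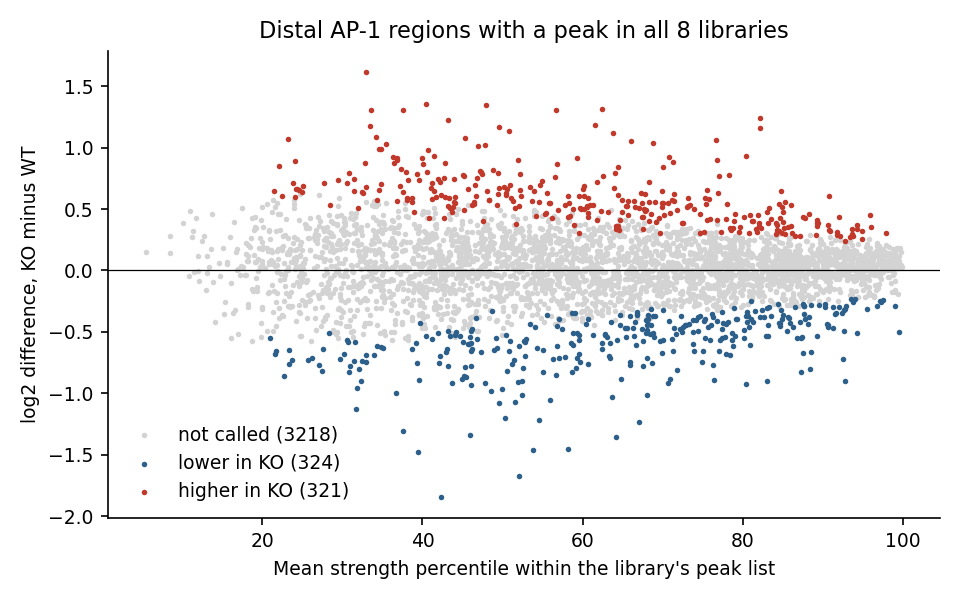
log2 difference in summit tags, KO minus WT (y axis), against mean strength percentile within the library's peak list (x axis), for the 3863 distal AP-1 regions with a peak in all 8 libraries; blue, lower in KO; red, higher in KO; grey, not called. The 324 falls and 321 rises are nearly absent at the weak end, where 1 of 106 tested regions in the weakest of 4 equal strength groups was called, and larger differences are found below the highest percentiles.

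Groups of AP-1 regions were then set beside each other. Among the 180 tested regions that also held a DR1 match, 37 were called lower (20.6%) and 8 higher (4.44%), with a median log2 difference of -0.10. Among the 3683 without DR1, 287 were lower (7.79%) and 313 higher (8.50%), with a median of 0.04. Distal regions with DR1 but no heptamer showed 18.8% lower and 2.66% higher, with a median of -0.11, so the DR1-holding regions were tilted towards falls with and without a heptamer. With DR1 clear of the heptamer, 37 of 170 regions were lower and 7 higher. The DR1 split was 19 lower and 1 higher under total depth, 41 and 8 under quantile normalisation and 37 and 9 after correction for GC content.

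Among other groups, rises outnumbered falls in some and not in others. Over all regions tested, 7.03% were lower and 5.81% higher. Regions with 2 or more heptamers were called lower in 14 of 256 cases (5.47%) and higher in 29 (11.3%), against 8.59% and 8.10% with 1 heptamer. With the heptamer within 10 bp of the summit, 34 of 615 (5.53%) were lower and 50 (8.13%) higher, and with the nearest heptamer 51 to 100 bp away 128 of 1163 (11.01%) were lower and 87 (7.48%) higher. Distal regions whose only heptamer lay just outside the window, 100 to 150 bp from the summit, had 64 falls (10.6%) and 45 rises (7.45%) among 604 tested. The composite arrangement with GAAA or TTTC gave 5 falls (3.79%) and 12 rises (9.09%) among 132. The PU.1 octamer gave 23 (6.39%) and 23 (6.39%) among 360, and GC-extended matches 59 (8.40%) and 49 (6.98%) among 702. Under total depth the split was 8 falls and 7 rises for 2 or more heptamers and 22 and 9 for heptamers within 10 bp of the summit, so rises no longer outnumbered falls there. These counts describe groups of neighbouring and partly overlapping sites, and the differences between groups were not tested.

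**Figure D4:**
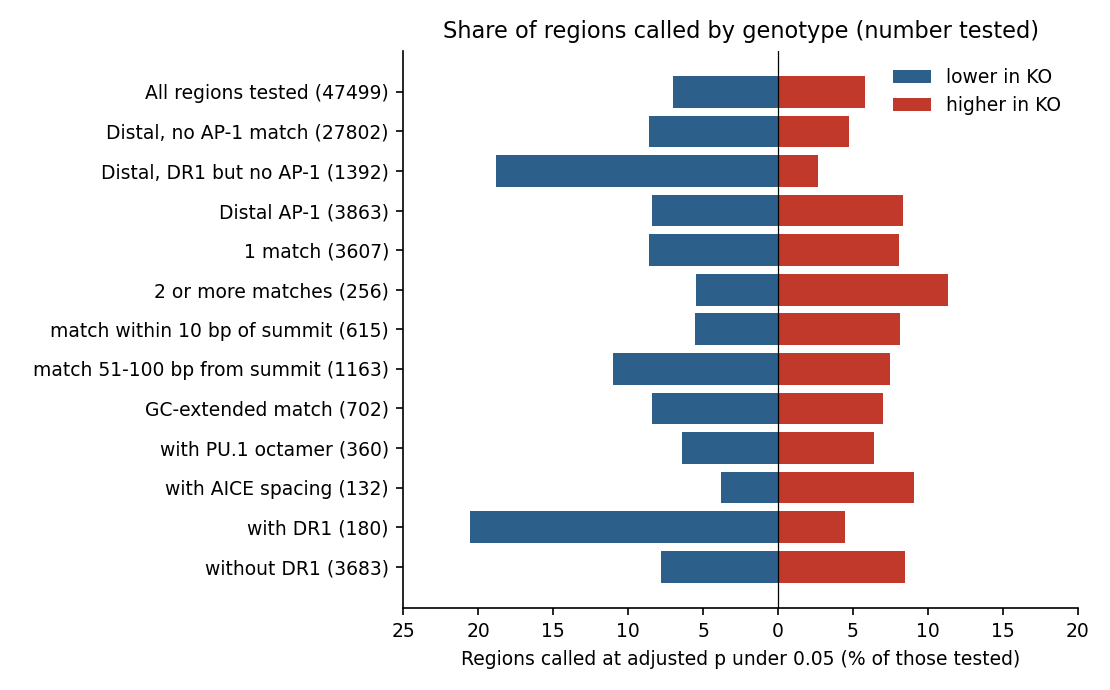
Share of tested regions called lower (blue, to the left) and higher (red, to the right) in KO at adjusted p under 0.05 (x axis, %), for all regions, distal regions without a heptamer, distal AP-1 regions and groups of these (y axis, number tested in brackets); AICE is the composite arrangement with GAAA or TTTC. Regions with DR1 extend furthest to the left, at 20.6% and 18.8%, and AP-1 regions with 2 or more heptamers furthest to the right, at 11.3%.

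The largest falls were seen at regions open at about the median level in WT. The region with the largest fall lay in an intron of Nck2, an adaptor that links receptor kinases to actin (chr1:43474056-43474942), and had levels of 0.943, 1.12, 1.01 and 0.917 in WT and 0.299, 0.289, 0.256 and 0.27 in KO (log2 difference -1.84 ± 0.17 (SE), adjusted p = 2.54e-11, limma). An intronic region of Ltbp1, which anchors latent TGF-β in the matrix (chr17:75199532-75200033), had 1.26, 1.21, 0.96 and 1.1 in WT and 0.358, 0.393, 0.256 and 0.426 in KO (log2 difference -1.68 ± 0.17 (SE), adjusted p = 3.44e-10). All 4 KO libraries were below all 4 WT libraries at both. An intronic region of Lgr4, a receptor for R-spondins (chr2:109959024-109959559), had 0.73, 0.628, 0.638 and 0.719 in WT and 0.241, 0.2, 0.289 and 0.252 in KO (log2 difference -1.48 ± 0.19 (SE), adjusted p = 8.38e-08). A region in an intron of the noncoding gene Gm36235, 190 kb from Trib2, a pseudokinase gene (chr12:16006633-16007124), had 1.23, 1.21, 1.27 and 1.07 in WT and 0.431, 0.348, 0.488 and 0.478 in KO (log2 difference -1.46 ± 0.15 (SE), adjusted p = 1.21e-09). The genotypes were again separate. An exonic region at Ssbp2, 39 kb from Acot12, a cytosolic acetyl-CoA thioesterase gene (chr13:91702336-91702772), had 1.13, 1.16, 0.987 and 1.13 in WT and 0.46, 0.348, 0.455 and 0.357 in KO (log2 difference -1.46 ± 0.16 (SE), adjusted p = 2.65e-09).

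Falls of similar size were found at 3 further regions. An intergenic region 199 kb from Ktn1, a kinesin-binding membrane protein gene (chr14:47863042-47863492), had levels of 1.28, 1.59, 1.28 and 1.2 in WT and 0.518, 0.437, 0.587 and 0.548 in KO (log2 difference -1.36 ± 0.15 (SE), adjusted p = 1.86e-09, limma). An intron of Nr3c1, which encodes the glucocorticoid receptor (chr18:39517031-39517584), held a heptamer and a PU.1 octamer and had 0.716, 0.77, 0.812 and 0.835 in WT and 0.299, 0.215, 0.322 and 0.443 in KO (log2 difference -1.34 ± 0.19 (SE), adjusted p = 8.57e-07). An intergenic region 18.9 kb from Dnaja2, an HSP70 co-chaperone gene (chr8:85574094-85574512), had 0.73, 0.574, 0.611 and 0.636 in WT and 0.226, 0.319, 0.223 and 0.27 in KO (log2 difference -1.31 ± 0.19 (SE), adjusted p = 1.35e-06). In each of the 8 regions every KO library was below every WT library, as the rule for naming them required.

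The largest rise was at an intergenic region 9.44 kb from Baiap2, a scaffold of actin-rich membrane protrusions (chr11:119933139-119933555), with levels of 0.206, 0.301, 0.235 and 0.24 in WT and 0.766, 0.985, 0.719 and 0.565 in KO (log2 difference 1.62 ± 0.19 (SE), adjusted p = 2.3e-08, limma). An intergenic region 29.4 kb from Rgs5, a regulator of G protein signalling (chr1:169625807-169626308), had 0.319, 0.311, 0.168 and 0.256 in WT and 0.664, 0.704, 0.587 and 0.67 in KO (log2 difference 1.36 ± 0.20 (SE), adjusted p = 1.64e-06) and held a PU.1 octamer. Both were weak in WT, with every WT level under 0.4. A region 7.09 kb from 6430531B16Rik (chr7:139971413-139971826), in an intron of Gm16201 and with 2 heptamers, had 0.787, 0.683, 0.517 and 0.653 in WT and 1.55, 1.67, 1.74 and 1.68 in KO (log2 difference 1.35 ± 0.13 (SE), adjusted p = 2.05e-10). An intron of Igf2bp3, 22.8 kb from Malsu1, a mitochondrial ribosome assembly gene (chr6:49096293-49096823), had 0.546, 0.475, 0.678 and 0.504 in WT and 1.32, 1.44, 1.2 and 1.47 in KO (log2 difference 1.31 ± 0.14 (SE), adjusted p = 3.28e-09). The 4 KO libraries stood above the 4 WT libraries in all of these, as the rule for naming them required.

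The other 4 named rises lay near Depdc1b, Nudt9, Rab7b and Clba1. The intergenic region 12.3 kb from Depdc1b (chr13:108303808-108304217) had its heptamer 2 bp from the summit and levels of 0.489, 0.464, 0.396 and 0.388 in WT and 0.912, 0.941, 1.18 and 1.3 in KO (log2 difference 1.31 ± 0.16 (SE), adjusted p = 4.66e-08, limma). An intron of Nudt9, an ADP-ribose hydrolase gene (chr5:104056309-104056683), had 0.362, 0.246, 0.235 and 0.24 in WT and 0.518, 0.585, 0.818 and 0.757 in KO (log2 difference 1.31 ± 0.20 (SE), adjusted p = 2.77e-06). An intron of Rab7b, a small GTPase of late endosomes (chr1:131703460-131703871), had 0.248, 0.279, 0.329 and 0.388 in WT and 0.737, 0.807, 0.736 and 0.757 in KO (log2 difference 1.31 ± 0.18 (SE), adjusted p = 5.32e-07). The genotypes did not overlap at these 3. The strongest of the rises was in an intron of Ahnak2, 13 kb from Clba1 (chr12:112795653-112796169), at levels of 1.45, 1.21, 1.43 and 1.78 in WT and 3.34, 3.37, 3.84 and 3.21 in KO (log2 difference 1.24 ± 0.10 (SE), adjusted p = 6.61e-13), and here too every KO library was above every WT library. Of these 16 regions, which were chosen for the size of their difference, 15 kept their call under each of the 20 alternatives that gave them a value. The exception was the region near Clba1, whose adjusted p was 0.149 with the deposited fold enrichment in place of tags.

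**Figure D5:**
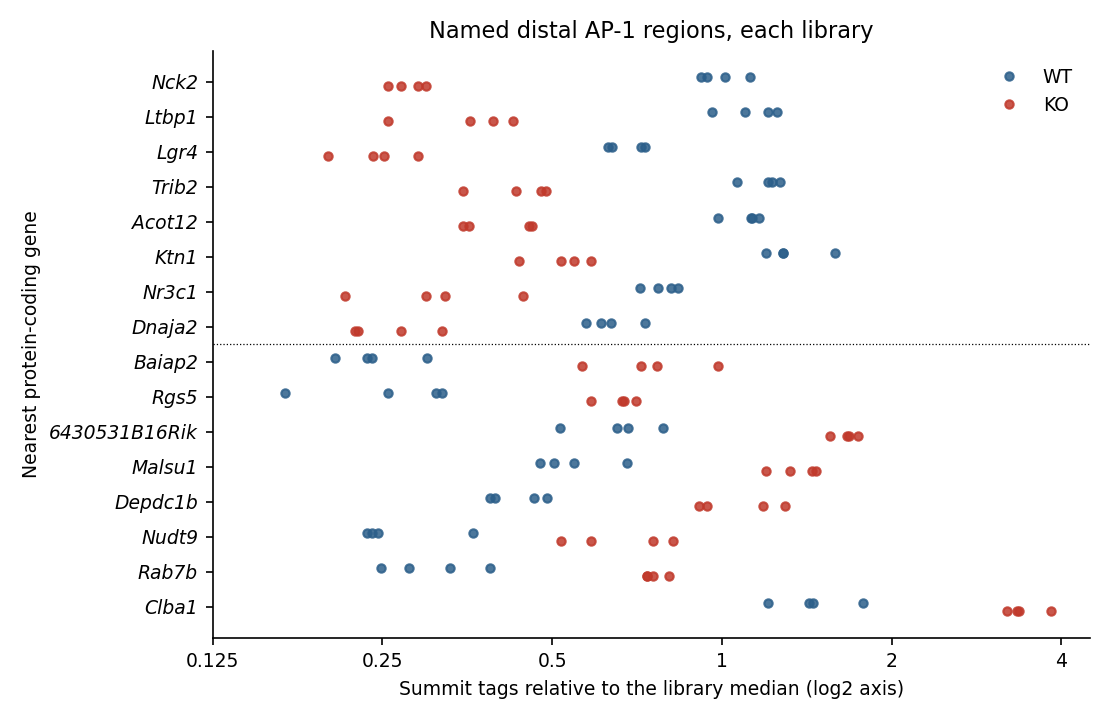
Summit tags relative to the library median (x axis, log2 scale) for the 8 largest falls (above the dotted line) and the 8 largest rises (below it) among called distal AP-1 regions whose genotypes did not overlap, named by the nearest protein-coding gene (y axis); each point is a library, WT blue and KO red. WT points lie to the right of KO points in the upper 8 regions and to their left in the lower 8.

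A smaller number of AP-1 regions had a peak in one genotype alone. A peak in all 4 WT and 0 KO libraries was found in 43 of 5673 AP-1 regions (0.758%), beside 0.831% of all autosomal consensus regions, and in all 4 KO and 0 WT libraries in 29 (0.511%), beside 0.258%. Other distal regions were WT-only in 434 of 46060 cases (0.942%) and KO-only in 114 (0.248%). Absence of a peak means that the caller's threshold was not reached, not that no tag was present. When 1 library was allowed to depart from the pattern the AP-1 counts were 165 and 127. With lists shortened to equal length they were 36 and 49, so KO-only regions then outnumbered WT-only ones. Shares over all regions are not given for these settings, so the counts cannot be set against the background.

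The strongest WT-only regions were near Pmepa1 and Vwf. An intronic region of Pmepa1, a TGF-β-induced inhibitor of SMAD signalling (chr2:173263575-173263963), had 92, 104, 113 and 84 summit tags in the WT libraries, and the nearest KO peak summit was 12.8 kb away. An intronic region of Vwf, the von Willebrand factor gene (chr6:125573224-125573563), had 121, 137, 122 and 106 tags in WT, but a KO peak summit lay 0.678 kb away. Both were far above the 7 to 9 tags of the smallest peaks in the WT lists. An intergenic region 85.1 kb from Ackr3, an atypical chemokine receptor gene (chr1:90288793-90289317), had 43, 40, 43 and 39 tags in WT. An intron of Dock5, 72.9 kb from Gnrh1 (chr14:67819021-67819403), had 21, 36, 23 and 37 tags. The heptamers of the first pair are given here, as the strongest openings with no KO peak.
Pmepa1 chr2:173263771-173263837: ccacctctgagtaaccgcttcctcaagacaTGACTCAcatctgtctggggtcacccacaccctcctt
Vwf chr6:125573409-125573475: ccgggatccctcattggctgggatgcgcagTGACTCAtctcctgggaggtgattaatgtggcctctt

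Summit tags at the named KO-only regions were below those at Pmepa1 and Vwf but overlapped those near Ackr3 and Gnrh1. An intronic region of Spint1, a membrane protease inhibitor (chr2:119242245-119242737), had 48, 36, 35 and 31 summit tags in the KO libraries, and an intronic region of Rasef, a RAB-like GTPase (chr4:73748175-73748599), had 29, 27, 25 and 30, with the nearest WT peak 453 kb away. An intergenic region 14.6 kb from AA467197 (chr2:122652268-122652752), which held a DR1 match, had 25, 26, 32 and 25 tags. None of these reached 50 tags, whereas the median AP-1 region with a peak in all libraries had 59 to 70 in KO. An intron of Tox3, an HMG-box factor gene (chr8:90302091-90302444), had 21, 29, 20 and 22 tags, and an intergenic region 77.1 kb from Serpinb9g (chr13:33561617-33562092) had 21, 23, 25 and 22 tags. The heptamers of the first pair are shown, as the strongest openings with no WT peak.
Spint1 chr2:119242554-119242620: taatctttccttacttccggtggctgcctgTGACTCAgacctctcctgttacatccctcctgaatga
Rasef chr4:73748380-73748446: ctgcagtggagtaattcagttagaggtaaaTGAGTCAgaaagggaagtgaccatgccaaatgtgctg

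Regions were also sorted by the gene whose protein-coding TSS lay nearest. Among the 21 genes of AP-1 and related bZIP factors, 14 had at least 1 of 30 AP-1 regions, and of the 23 tested 4 were lower (17.4%) and 0 higher in KO, with a median log2 difference of 0.01, beside 7.03% and 5.81% of all regions. Regions near Fos, Junb, Batf and Nfe2l2 were tested and not called. The largest of the 4 falls was far from its gene: an intergenic region 213 kb from Maf, a bZIP factor of macrophage differentiation (chr8:115494280-115494756), at levels of 0.333, 0.344, 0.329 and 0.537 in WT and 0.212, 0.23, 0.174 and 0.287 in KO (log2 difference -0.77 ± 0.21 (SE), adjusted p = 0.0112, limma). An intron of Jdp2, which encodes a repressing partner of JUN (chr12:85624596-85625057), had 1.17, 0.978, 1.16 and 0.983 in WT and 0.796, 0.911, 0.785 and 0.722 in KO (log2 difference -0.42 ± 0.14 (SE), adjusted p = 0.0347). A region 58.9 kb from Bach2, a bZIP repressor gene (chr4:32179615-32180265), had 2.25, 2.19, 2.02 and 2.11 in WT and 1.77, 1.87, 1.58 and 1.4 in KO (log2 difference -0.38 ± 0.10 (SE), adjusted p = 0.00938). The genotypes did not overlap at any of these 3. The fall at Maff, a small MAF gene, was at an intronic region (chr15:79354602-79355139) with levels of 5.35, 4.8, 5 and 6.22 in WT and 4.47, 4.23, 4.42 and 3.64 in KO (log2 difference -0.35 ± 0.08 (SE), adjusted p = 0.00317). A second intronic region of Maff (chr15:79353526-79353811) was WT-only, with 101, 122, 113 and 101 tags, while KO peaks had their nearest summit 1.14 kb away. Despite these tags its mean strength percentile was only 29.4 in the WT libraries. The called regions at Jdp2, Bach2 and Maff each held a DR1 match. Under total depth the log2 differences at Jdp2, Bach2 and Maff were -0.47, -0.43 and -0.40 and did not pass the test (adjusted p = 0.147, 0.105 and 0.122, limma). With the deposited fold enrichment the calls at Jdp2 and Bach2 were lost (adjusted p = 0.246 and 0.0544, limma), and the Maff difference was 0.13. Leaving out 1 library ended the call at Maf (KO replicate 2 or WT replicate 4), Jdp2 (KO replicate 1_2, 2 or 3, or WT replicate 1_2 or 3) and Bach2 (KO replicate 3), with adjusted p-values of at most 0.0709, 0.115 and 0.0665 (limma).

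Genes known as AP-1 or NRF2 targets in macrophages were mostly not called. Of 30 genes, 17 had 29 AP-1 regions, and of 22 tested 2 fell (9.09%) and 0 rose, beside 7.03% and 5.81% of all regions, with a median log2 difference of 0.04. A region 51.4 kb from Ptgs2, the inducible cyclooxygenase (chr1:150151223-150151720), had levels of 1.67, 1.33, 1.42 and 1.36 in WT and 0.942, 1.06, 0.752 and 0.93 in KO (log2 difference -0.65 ± 0.13 (SE), adjusted p = 0.000248, limma). A region 10.2 kb from Il1b, the interleukin-1β gene (chr2:129360667-129361149), had 1.52, 1.8, 1.66 and 1.46 in WT and 1.22, 1.44, 1.1 and 1.02 in KO (log2 difference -0.44 ± 0.12 (SE), adjusted p = 0.00896). The KO libraries were below the WT libraries at both, and the Il1b call was lost without KO replicate 3 (adjusted p = 0.0522, limma) or under total depth (0.0673). With the deposited fold enrichment both calls were lost (adjusted p = 0.0507 at Ptgs2 and 0.253 at Il1b, limma). An intron of Tom1, 26.1 kb from Hmox1, the heme oxygenase gene (chr8:75067353-75067624), was KO-only with 27, 34, 27 and 21 tags. The strong regions near Lgals3, Tnf, Il1a and Spp1, whose best had percentiles of 97.03, 93.2, 93.3 and 93.0, were not called.

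The 37 AM genes had more AP-1 regions, 65 at 24 genes. Of 47 tested, 4 fell (8.51%) and 2 rose (4.26%), beside 7.03% and 5.81% of all regions, with a median log2 difference of 0.01. Marco, a scavenger receptor, had 4 AP-1 regions of which 2 fell: chr1:120523994-120524665, 19.3 kb away, had levels of 3.81, 3.58, 4.48 and 4.42 in WT and 2.5, 2.24, 2.16 and 2.41 in KO (log2 difference -0.80 ± 0.09 (SE), adjusted p = 3.99e-09, limma), and chr1:120430061-120430595, 74.7 kb away, had 2.04, 2.26, 1.56 and 2.12 in WT and 1.57, 1.59, 1.36 and 1.57 in KO (log2 difference -0.38 ± 0.11 (SE), adjusted p = 0.0157). The genotypes were apart at the first, while at the second the WT level of 1.56 lay within the KO range. A region 54.4 kb from Fabp5, a fatty acid binding protein gene (chr3:9957873-9958412), had 1.58, 1.25, 1.5 and 1.43 in WT and 1.03, 1.19, 0.851 and 1.19 in KO (log2 difference -0.44 ± 0.13 (SE), adjusted p = 0.0131), and one 3.13 kb from Cidec, a lipid droplet protein gene (chr6:113438721-113439022), had 1.71, 1.68, 1.71 and 1.68 in WT and 1.58, 1.27, 1.28 and 1.17 in KO (log2 difference -0.36 ± 0.11 (SE), adjusted p = 0.0229). Against these falls, an intron of Runx1, a factor of blood lineages (chr16:92620719-92621565), with 2 heptamers, had 0.645, 0.847, 0.611 and 1.02 in WT and 1.25, 1.4, 1.23 and 1.33 in KO (log2 difference 0.77 ± 0.14 (SE), adjusted p = 0.000118), and a region 15.7 kb from Klf6 (chr13:5845129-5846056) had 1.58, 1.66, 1.58 and 1.86 in WT and 2.02, 2.17, 2.06 and 2.13 in KO (log2 difference 0.33 ± 0.10 (SE), adjusted p = 0.0194). The Runx1 call held under all 20 alternatives. Of the 7 AP-1 regions nearest to Runx1, a weak intergenic one (chr16:92842138-92842505), named after its values were seen, was WT-only. Leaving out 1 library ended the call at Fabp5 (KO replicate 2 or WT replicate 1_2), the second Marco region (KO replicate 2 or WT replicate 1_3), Cidec (KO replicate 1_3, 2 or 3, or WT replicate 1_2 or 3) and Klf6 (KO replicate 1_3 or 3, or WT replicate 1_2 or 3), with adjusted p-values of at most 0.0831, 0.0787, 0.0932 and 0.0681 (limma). These 4 calls were also lost under total depth and with the deposited fold enrichment, and the call at the first Marco region was lost with the deposited fold enrichment (adjusted p = 0.653, limma). With replicates 1_2 and 1_3 as 1 sample the calls at the second Marco region and Klf6 were lost (adjusted p = 0.0584 and 0.0557, limma).

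Only 6 AP-1 regions lay nearest to the 13 genes of immature macrophages and monocytes, and all 6 were tested. Of these, 1 fell (16.7%) and 1 rose (16.7%), beside 7.03% and 5.81% of all regions, with a median log2 difference of -0.009. An intron of Itgam, which encodes CD11b (chr7:128089028-128089776), rose, with levels of 1.04, 0.891, 0.839 and 0.934 in WT and 2.05, 1.84, 1.63 and 1.42 in KO (log2 difference 0.90 ± 0.12 (SE), adjusted p = 6.04e-07, limma), and held a PU.1 octamer beside the heptamer. An intron of Mrc1, the mannose receptor gene, which also stands among the AM markers above (chr2:14272009-14272553), fell, with 1.58, 1.74, 1.72 and 2.02 in WT and 1.26, 1.28, 1.13 and 1.14 in KO (log2 difference -0.55 ± 0.11 (SE), adjusted p = 0.000411). The genotypes were separate at both, and each call held except with the deposited fold enrichment (adjusted p = 0.0555 and 0.515). The regions near Ccr2, Cx3cr1 and Csf1r and the other region of Mrc1 were not called.

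AP-1 regions were spread over 3722 protein-coding genes by nearest TSS, of which 2582 had 1 and 85 had 5 or more. The most were near Klf6, a zinc finger factor of macrophage activation, with 12 of its 52 distal regions. Of these 12, 11 had a peak in all 8 libraries, and 1 rose. Adgrl2, an adhesion receptor gene, Cited2, a transcriptional co-regulator gene, and Trib1, a pseudokinase gene, had 11 each, of 66, 43 and 63 distal regions. At Adgrl2 1 of 8 tested regions fell (log2 difference -0.53, adjusted p = 0.00019, limma), and at Cited2 none of the 7 tested was called. Trib1, with 10 tested, had calls both ways within chr15:59520368-59823590. These were 2 falls (log2 differences -0.35 and -0.42, adjusted p = 0.0355 and 0.000356, limma) and 1 rise (0.43, adjusted p = 0.00512, limma). Over all regions tested, 7.03% were called lower and 5.81% higher, and no gene's count was tested against these shares.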

How the data were processed

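The sample titles gave the genotype and the replicate name of each library. Per the study's methods, the authors trimmed adapters (cutadapt), mapped read pairs to mm10 (Bowtie2), kept properly paired, non-duplicated alignments (SAMtools), placed 200-bp tags around each transposase cut and called peaks in each library (MACS3, q-value threshold 0.05). The deposited lists give for each peak a fold, which is the authors' ratio of summit pileup to local background, the −log10 p-value and −log10 q-value deposited by the authors, a summit, and a display score deposited by the authors that was not used. Lists hold peaks above a threshold only. List length did not follow relative depth throughout. KO replicate 1_2, at 1.86 background tags per 200 bp, had 60363 peaks, and KO replicate 3, at 1.12, had 63600.

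Peaks sharing at least 1 bp were merged over the 8 libraries, and a region entered the consensus when 2 or more libraries had a peak in it. The summit of a region, used for distances and patterns, was that of the peak with the largest −log10 q. A library's tags in a region were the most at any of its own peak summits there. TSSs were those of protein-coding and long noncoding transcripts of GENCODE M21 (basic set, GRCm38), and sequence was read from RefSeq GRCm38.p6. All peaks lay within its chromosome lengths. Patterns were matched exactly on both strands, except DR1. Summit tags were worked back from fold and −log10 p, and whole numbers gave back 100% of the p-values within a relative error of 1e-05. The lists hold no read totals, so depth is relative, and tags cover counting at a summit only.

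Shares per library were compared by exact permutation (two-sided). Tags were compared as log2(tags + 0.5), centred on library medians, with limma 3.58.1 in R 4.3.3 (trended variance prior, threshold 0.05 on Benjamini-Hochberg adjusted p). A fold on this scale understates changes of low regions. The study gives 4 per genotype and describes individual biological replicates sequenced in duplicate. Whether the shared first number of 1_2 and 1_3 marks a shared animal is not stated, so p-values may measure only the spread between these libraries. The labels give no sex per library. Regions were named by the following rule: the 8 largest falls and 8 largest rises without overlap of the genotypes, the 5 strongest WT-only and 5 strongest KO-only regions, the 6 strongest regions, up to 6 called or one-sided regions per gene list, and the 4 genes with most regions. Of these, 2 regions are not reported here. The regions, patterns and gene lists were chosen with earlier results of these data known. Same-numbered KO and WT libraries deviated together with correlations of 0.06, 0.12 and 0.04 across regions, each low but the highest for its KO library. Whether the numbers mark a shared batch is not stated. The main comparison did not pair libraries by number, and a replicate block was run as an alternative. The alternatives were the scalings, pseudocount 5, a 50-bp window, other TSS, merging and peak filters, leaving out each library, counting 1_2 and 1_3 as 1 sample and a replicate block.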

Additional observations from a re-analysis of the deposited data

Results flagged for a closer look

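Among 96 sets of 4 libraries looked at (each named region in each genotype, and 6 measures per library), 5 had a library whose gap to its nearest neighbour took up more of the set's range than Dixon's 95% critical value allows. Chance flags about 1 in 20 such sets. At the region near Nudt9 the highest WT level was 0.362 (replicate 1_2), and at that near Maf it was 0.537 (replicate 4). At Pfkfb3 the lowest KO level was 6.74 and at the second Marco region it was 1.36, both in replicate 2. At the KO-only region near AA467197 the highest KO library, replicate 2, had 32 tags. The fall near Maf was not called without WT replicate 4 or without KO replicate 2 (largest adjusted p = 0.0709, limma).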

How the results depend on the processing

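The number of AP-1 regions stayed between 3784 (match within 50 bp) and 5775. The difference in AP-1 share (KO minus WT, 0.424 percentage points) kept its sign in all 15 alternatives, from 0.263 among the 10000 strongest peaks (exact permutation p = 0.114) to 0.530 among all distal peaks. It was 0.314 to 0.496 points with 1 library left out, where without a KO library the exact permutation p was 0.0571, and 0.470 with replicates 1_2 and 1_3 as 1 sample (exact permutation p = 0.1, the smallest possible there). With the replicate block over 6 libraries it was 0.460 points (exact paired permutation p = 0.25, the smallest possible for 3 pairs), and 0.460 for the same 6 libraries without the block (exact permutation p = 0.1, the smallest possible). The replicate block gave 317 falls (8.21% of those tested) and 370 rises (9.58%), beside 6.94% and 7.60% of all regions. The same 6 libraries without it gave 267 (6.91%) and 290 (7.51%), beside 5.82% and 5.28% of all regions. The calls near Maf, Fabp5 and the second Marco region were lost over these 6 libraries both with the replicate block (adjusted p = 0.169, 0.0663 and 0.0714, limma) and without it (0.193, 0.0869 and 0.107). Each KO library with a shared number correlated best with the WT library of that number. AP-1 regions called lower and higher were 184 (4.76%) and 94 (2.43%) under total tag depth, beside 4.19% and 1.21% of all regions. With the deposited fold enrichment they were 97 (2.51%) and 92 (2.38%), beside 2.19% and 1.36% of all regions. The cause of these lower counts was not tested. The other 20 alternatives gave 254 to 359 falls and 232 to 378 rises. Over all regions 5.52% to 7.62% were lower and 3.84% to 7.60% higher in these 20. The median log2 difference of AP-1 regions was -0.018 under total depth and from 0.02 to 0.06 otherwise. WT-only and KO-only AP-1 regions numbered 165 and 127 when 1 library could depart, 36 and 49 with equal list lengths, and 48 to 81 and 33 to 54 with 1 library left out. Shares over all regions are not given for these counts. WT-only regions were 67 without KO replicate 1_3 and 81 without WT replicate 4, and KO-only regions were 50 without KO replicate 1_2 and 54 without WT replicate 1_3. Of 30 named called regions, 16 kept their call under every alternative that gave them a value, and 1 changed direction, the region of Maff at 0.13 with the deposited fold. The strong region near Trdmt1 was called after GC correction (adjusted p = 0.0396, limma). Peaks merged at 100 bp changed no count of called AP-1 regions. By strength, the weakest of 4 equal groups had 1 fall and 0 rises among 106 tested AP-1 regions. The next had 58 and 85 among 931, the third 137 and 137 among 1408, and the strongest 128 and 99 among 1418. Shares over all regions by strength are not given, and the part of depth was not tested. The 1810 AP-1 regions without a peak in all 8 libraries were not compared.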
